A study of Mus musculus with 9 samples.

Results

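The genes described here are 10 genes of hepatic glucose production, read from microarrays of mouse liver. The list was set by gene name, with earlier results of these data known. The list holds the enzymes and the transporter of the pathway (Pck1, Pck2, G6pc, Fbp1, Pcx and Slc37a4), the coactivators Ppargc1a, Ppargc1b and Crtc2, and Lpin1. All 10 had a value among the 19938 genes measured. The samples were 9 pools of liver RNA from male C57BL/6J mice, each pool made of 5 mice and run on 1 array. The diets crossed 2 levels of protein, high (HP, 50% of energy) and normal (NP, 15%), with 2 levels of fat, high (HF, 35%) and low (LF, 10%). The groups were HF-HP, LF-HP, HF-NP and LF-NP, each with 1 pool after 1 week (age 13 weeks) and 1 pool after 12 weeks (labelled age 22 weeks). A reference pool came from mice at week 0 (age 12 weeks), which had eaten the LF-NP diet. Carbohydrate made up the rest of the energy, 15% in HF-HP, 40% in LF-HP, 50% in HF-NP and 75% in LF-NP. Food was withheld through the light phase, and a meal of fixed size was given early in the dark phase. Livers were taken shortly after this meal, so the values describe animals fed after hours without food. Pooling leaves the spread between mice out of the data, and no diet and week has a repeat pool. The p-values of the fits below measure only the spread of pools around the fitted diet and week terms. That spread includes any interaction left out of the fit. RNA of whole liver cannot tell fewer cells of a type from less RNA per cell.

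Gluconeogenesis makes glucose from lactate, amino acids and glycerol. Pyruvate carboxylase and phosphoenolpyruvate carboxykinase turn pyruvate into phosphoenolpyruvate, fructose-1,6-bisphosphatase bypasses a one-way step of glycolysis, and glucose-6-phosphatase with its transporter releases free glucose in the endoplasmic reticulum. In fasting, glucagon acts through cAMP and the factor CREB with its coactivator CRTC2, which turn on Pck1, G6pc and Ppargc1a. PGC-1α, the product of Ppargc1a, then coactivates FOXO1, HNF4α and nuclear receptors, and insulin after a meal opposes these steps. PGC-1β, from Ppargc1b, shares much of this structure and is better known in liver for oxidative and lipid programmes.

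The sequence that links these genes to cAMP is the cAMP response element, and the promoters of 3 of them are printed to show where its letters stand. Ppargc1a and Pck1 had the largest HP minus NP differences in level of the 10 genes, and G6pc the smallest. Each window runs from 250 bases before to 50 bases after the start that RefSeq gives (GRCm38.p6), and capitals mark the letters TGACG, the first part of the element, read on either strand (CGTCA when on the opposite strand).
Ppargc1a, chr5:51567676-51567975, minus strand: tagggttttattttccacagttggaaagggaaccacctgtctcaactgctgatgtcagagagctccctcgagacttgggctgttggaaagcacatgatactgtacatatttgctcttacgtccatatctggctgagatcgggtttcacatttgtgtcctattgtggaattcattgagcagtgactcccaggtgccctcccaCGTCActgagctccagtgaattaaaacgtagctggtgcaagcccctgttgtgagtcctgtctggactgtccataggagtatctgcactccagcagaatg
Pck1, chr2:173152823-173153122, plus strand: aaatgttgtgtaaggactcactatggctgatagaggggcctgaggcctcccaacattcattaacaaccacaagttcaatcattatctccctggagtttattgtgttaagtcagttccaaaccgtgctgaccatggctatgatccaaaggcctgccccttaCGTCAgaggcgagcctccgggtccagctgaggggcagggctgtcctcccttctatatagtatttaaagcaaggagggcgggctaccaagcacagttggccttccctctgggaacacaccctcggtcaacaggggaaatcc
G6pc, chr11:101367466-101367765, plus strand: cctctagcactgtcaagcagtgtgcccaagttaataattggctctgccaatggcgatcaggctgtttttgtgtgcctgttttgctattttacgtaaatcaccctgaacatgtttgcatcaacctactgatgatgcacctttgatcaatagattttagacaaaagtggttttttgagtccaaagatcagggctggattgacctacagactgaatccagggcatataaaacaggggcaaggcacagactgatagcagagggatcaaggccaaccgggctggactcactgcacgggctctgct
The letters lay at -49 in the Ppargc1a window and at -90 in the Pck1 window, in both on the opposite strand, and were not in the G6pc window. The RefSeq table held 11 such windows for 8 of the 10 genes. For Ppargc1a, Pck1 and G6pc only the printed window was searched, so sites at any other start of these genes, or further from this start, would be missed. Among the others, TGACG was found in both overlapping windows of Slc37a4 that lie furthest upstream, at -61 in one and at -214 and -82 in the other (the first and second of these positions are the same site), and in none of Pck2, Pcx, Fbp1 or Lpin1. Of all 32851 RefSeq promoters searched, 20.81% held TGACG on either strand, so the match is common. The full palindrome TGACGTCA, which contains TGACG and was in 1.79% of all promoters, was in none of the 11 windows. The same held for GTAAACA, the FOXO and FOXA core (3.65% of all promoters), and for AAGGTCA, a motif of ERR receptors (4.718%). AGAACA, a motif of the glucocorticoid receptor in 18.97% of all promoters, was found only in Lpin1, at -163. These are matches of exact letters, so other forms of the same motifs would be missed, in G6pc as elsewhere. Slc37a4, which held TGACG, had an HP minus NP difference of -0.05. Binding was not measured, and a link between the letters and the differences was not tested.

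Ppargc1a was higher under HP than under NP feeding in every matched pair of pools, and varied more across the 9 pools than any other gene of the list. Its log2 RMA signal, a normalised and summarised probe brightness on the log2 scale, was 9.47 and 9.79 in the HF-HP pools at 1 and 12 weeks and 9.15 and 8.68 in the LF-HP pools, against 7.90 and 7.64 in the HF-NP pools and 7.90 and 8.18 in the LF-NP pools. The lowest HP pool was thus above the highest NP pool. The HP minus NP difference was 1.36 (SE 0.22), a signal 2.57 times as high (95% interval 1.79 to 3.69). In limma across all genes its adjusted p was 0.0592, which misses the threshold of 0.05. An exact permutation test over the 8 diet pools, which took no account of fat or week, gave a two-sided p of 0.0286. This is the smallest that 4 against 4 pools can give. By size the difference was the 11th highest of the 19938 genes, and by p the gene ranked 124. Of all genes 0.441% passed the limma test in this comparison (34 higher and 54 lower), and 4.79% had HP and NP groups that did not overlap. Of the 10 genes, 0 passed, 3 had an unadjusted p under 0.05 in the same fit (10.26% of all genes did), and Ppargc1a alone had groups that did not overlap.

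The call for Ppargc1a lay close to the threshold and turned on single choices. It passed in 7 of 20 alternatives fitted over many genes, among them the one that left out LF-HP at 12 weeks, where the difference was 1.60 and the adjusted p 0.0488. With any of the other 7 diet pools left out it did not pass, up to an adjusted p of 0.257 without the HF-NP pool of week 1. A second, dimmer probe set of Ppargc1a gave 7.65 and 7.84 in the HF-HP pools at 1 and 12 weeks and 7.35 and 6.82 in the LF-HP pools, against 6.05 and 5.50 in the HF-NP pools and 6.07 and 6.10 in the LF-NP pools. Both probe sets thus put every HP pool above every NP pool.

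**Figure D1:**
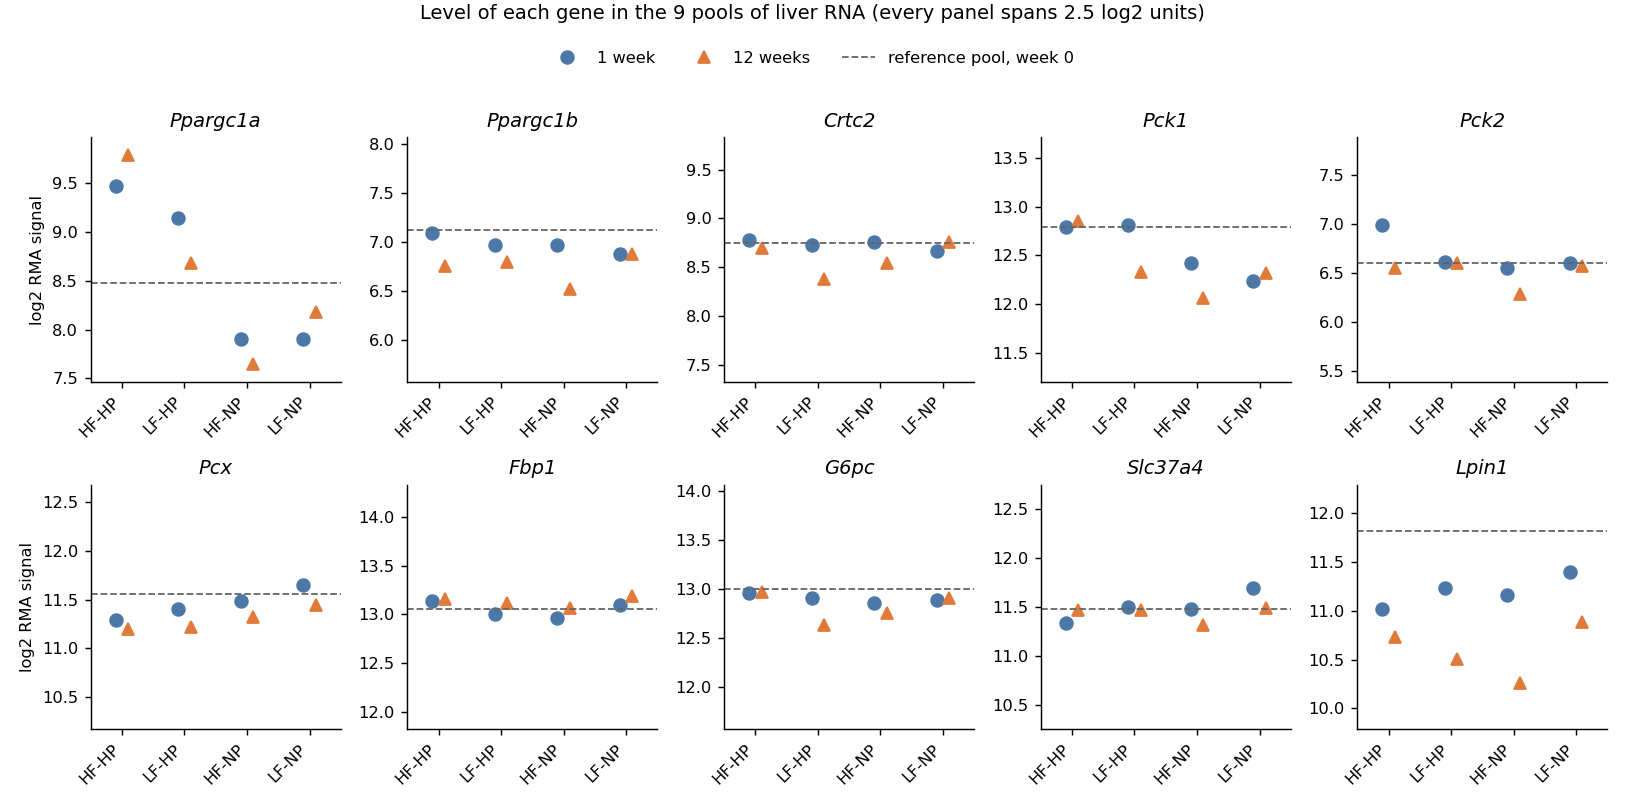
Log2 RMA signal of each of the 10 genes by diet, with circles for the pool of 1 week, triangles for the pool of 12 weeks and a dashed line for the reference pool of week 0. Each point is 1 pool of 5 mice and all panels span the same height on the log2 scale. The HP pools of Ppargc1a lie between 8.68 and 9.79 and its NP pools between 7.64 and 8.18, while Fbp1, G6pc and Slc37a4 stay nearly level.

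The size of the Ppargc1a difference was not the same in all pairs. HF-HP exceeded HF-NP by 2.15 at 12 weeks and 1.56 at 1 week, and LF-HP exceeded LF-NP by 0.50 at 12 weeks and 1.25 at 1 week. As folds these are 4.43, 2.96, 1.42 and 2.37. The test of the difference itself, a protein by fat term of 0.98 (SE 0.28), had an adjusted p of 0.678 in limma, and the term was 0.69 when LF-HP at 12 weeks was left out. The protein by week term was -0.08 (SE 0.48, adjusted p = 1). Against the reference pool, at 8.48, the 4 HP pools were higher, by 0.20 to 1.31, and the 4 NP pools lower, by 0.30 to 0.84. Among these NP pools were both LF-NP pools, although the reference mice had eaten the same LF-NP diet.

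The related coactivators showed no such separation. Ppargc1b had 7.09 and 6.76 in the HF-HP pools at 1 and 12 weeks and 6.97 and 6.80 in the LF-HP pools, against 6.97 and 6.52 in the HF-NP pools and 6.88 and 6.88 in the LF-NP pools. The groups overlapped, with an HP minus NP difference of 0.09 (95% interval -0.11 to 0.29, adjusted p = 0.804), and it ran from 0.017 without HF-NP at 12 weeks to 0.17 without LF-NP at 12 weeks. Crtc2, which encodes the CREB coactivator that is held out of the nucleus while phosphorylated, had 8.78 and 8.69 in the HF-HP pools and 8.73 and 8.38 in the LF-HP pools, against 8.76 and 8.55 in the HF-NP pools and 8.67 and 8.76 in the LF-NP pools. Its difference was -0.04 (95% interval -0.24 to 0.17, adjusted p = 0.939), and the low value of the LF-HP pool at 12 weeks was the only pair in which HP lay below NP. Neither gene passed, and for both genes the intervals leave out differences as large as that of Ppargc1a.

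Pck1, the cytosolic phosphoenolpyruvate carboxykinase, was the enzyme with the largest HP minus NP difference. It had 12.79 and 12.86 in the HF-HP pools at 1 and 12 weeks and 12.81 and 12.33 in the LF-HP pools, against 12.43 and 12.06 in the HF-NP pools and 12.24 and 12.32 in the LF-NP pools. HP was above NP in all 4 pairs, but by 0.01 only in the LF diets at 12 weeks, against 0.79 in the HF diets at 12 weeks, 0.57 in the LF diets at 1 week and 0.36 in the HF diets at 1 week. The groups overlapped through the LF-HP pool of week 12. The difference was 0.44 (SE 0.12), or 1.35-fold (95% interval 1.12 to 1.63), with an adjusted p of 0.235 in limma and a two-sided p of 0.0571 in the exact permutation test. With LF-HP at 12 weeks left out it was 0.55 (adjusted p = 0.140), which also did not pass. In the reference pool Pck1 stood at 12.79, level with the 3 higher HP pools.

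Pcx, pyruvate carboxylase, which feeds both gluconeogenesis and the citric acid cycle, differed in the opposite direction. It had 11.29 and 11.20 in the HF-HP pools at 1 and 12 weeks and 11.40 and 11.22 in the LF-HP pools, against 11.49 and 11.32 in the HF-NP pools and 11.65 and 11.45 in the LF-NP pools. HP was below NP in all 4 pairs, by 0.12 to 0.25, though the groups overlapped because the LF-HP pool of week 1 exceeded the HF-NP pool of week 12. The difference was -0.20 (SE 0.05), 0.87-fold (95% interval 0.80 to 0.95), and did not pass (adjusted p = 0.238, exact permutation p = 0.0571). Pcx had the smallest residual SD of the 10 genes in limma, 0.08 against 0.16 for Pck1 and 0.32 for Ppargc1a. The residual SD is the spread around additive terms for protein, fat and week, so it also holds any interaction of these. limma draws this SD of each gene toward a value shared by all genes.

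Pck2, the mitochondrial form of the carboxykinase, had 6.99 and 6.55 in the HF-HP pools at 1 and 12 weeks and 6.61 and 6.60 in the LF-HP pools, against 6.55 and 6.29 in the HF-NP pools and 6.60 and 6.58 in the LF-NP pools. A high HF-HP pool at 1 week and a low HF-NP pool at 12 weeks set its range, and the LF pools were within 0.03 of each other in each week. The difference was 0.18 (95% interval -0.06 to 0.42, adjusted p = 0.643). It was 0.077 with the HF-HP pool of week 1 left out and 0.12 with the HF-NP pool of week 12 left out, and at most 0.27 with any 1 pool left out.

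The final steps to free glucose were close to level. G6pc, the catalytic subunit of glucose-6-phosphatase, had 12.96 and 12.97 in the HF-HP pools at 1 and 12 weeks and 12.91 and 12.64 in the LF-HP pools, against 12.86 and 12.76 in the HF-NP pools and 12.89 and 12.91 in the LF-NP pools. The difference was 0.02 (95% interval -0.18 to 0.21). Fbp1, the liver fructose-1,6-bisphosphatase, lay between 13.00 and 13.16 in HP pools and between 12.96 and 13.19 in NP pools, with a difference of 0.02 (95% interval -0.13 to 0.17). Slc37a4, which carries glucose 6-phosphate into the endoplasmic reticulum, lay between 11.33 and 11.50 in HP pools and between 11.31 and 11.69 in NP pools, with a difference of -0.05 (95% interval -0.22 to 0.12). The 3 genes had adjusted p-values of 0.895 or more, and as folds their intervals all lay between 0.86 and 1.16.

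**Figure D2:**
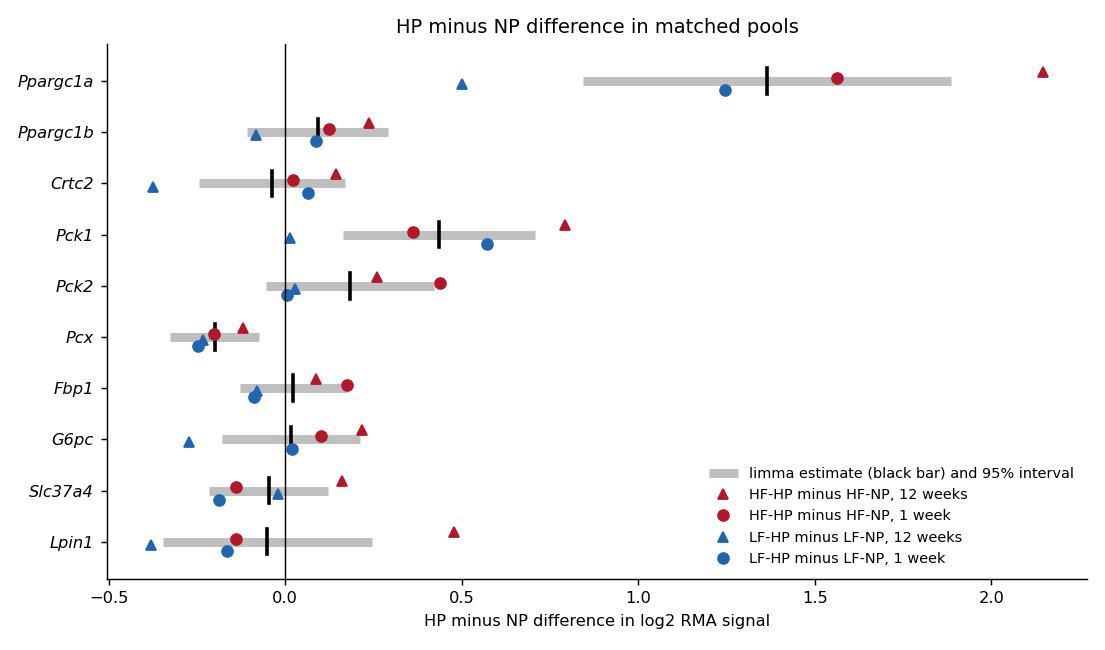
Differences of HP minus NP for the 10 genes, in log2 RMA signal. Points are the 4 matched pairs of pools (red HF, blue LF, triangles 12 weeks, circles 1 week), the black bar is the limma estimate and the grey bar its 95% interval. Ppargc1a runs from 0.50 to 2.15, Pck1 from 0.01 to 0.79 and Pcx from -0.25 to -0.12, and the other genes have pairs near or on both sides of 0.

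Lpin1 encodes a phosphatidate phosphatase that also acts with PGC-1α and PPARα on genes of fat oxidation, and in mouse liver it is itself a target of PGC-1α. It had 11.02 and 10.74 in the HF-HP pools at 1 and 12 weeks and 11.24 and 10.50 in the LF-HP pools, against 11.16 and 10.26 in the HF-NP pools and 11.40 and 10.88 in the LF-NP pools. HP lay below NP in 3 pairs, by 0.14 to 0.38, and above it in the HF diets at 12 weeks, by 0.48, so that the HP minus NP difference was -0.05 (95% interval -0.35 to 0.24, adjusted p = 0.941). Its level followed the week instead. All 4 pools of 12 weeks were below all 4 pools of 1 week, and all 8 diet pools were below the reference pool at 11.82, by 0.42 to 1.56. The 12 weeks minus 1 week difference was -0.61 (SE 0.13), 0.66-fold (95% interval 0.53 to 0.80), with an adjusted p of 0.499.

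Of the 10 genes, 9 had a 12 weeks minus 1 week difference below 0, with Fbp1 as the exception, and the median difference was -0.15 against -0.01 over all genes. None passed in limma (0 of 10, 3 at an unadjusted p under 0.05), where 0.00502% of all genes did and 7.714% had an unadjusted p under 0.05. Ppargc1b had the second largest of these differences, -0.24 (SE 0.09, adjusted p = 0.589), which was -0.39 in HF diets alone and -0.086 in LF diets alone. With 6.76 in HF-HP, 6.80 in LF-HP, 6.52 in HF-NP and 6.88 in LF-NP at 12 weeks it stayed below its pools of 1 week, whose lowest was also 6.88, and the LF-NP pools of the 2 weeks differed by 0.001 only. The third gene with an unadjusted p under 0.05 was Pcx, at -0.16 (SE 0.05, adjusted p = 0.577), a smaller difference than those of Pck2 (-0.18) and Pck1 (-0.17). Groups that did not overlap between the weeks were seen for Lpin1 and Ppargc1b, against 2.79% of all genes. The mice of 12 weeks were older and were other animals than those of 1 week, so age and time on the diet cannot be told apart. The HF-NP pool of week 12 was the lowest of the 9 pools for 6 of the 10 genes, Ppargc1a, Ppargc1b, Pck1, Pck2, Slc37a4 and Lpin1, and these values share that 1 pool.

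**Figure D3:**
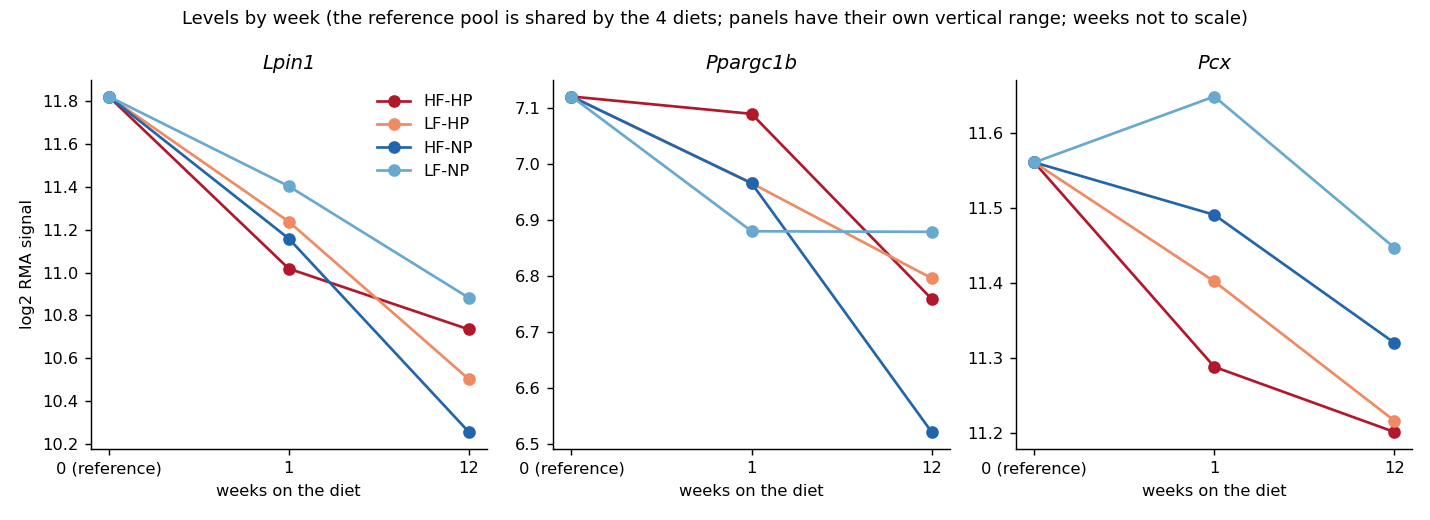
Log2 RMA signal of Lpin1, Ppargc1b and Pcx at 0, 1 and 12 weeks for the 4 diets, each point 1 pool, with the reference pool of week 0 shared by all diets. Lpin1 is below its reference value of 11.82 in all 8 diet pools, and in both weeks Pcx is lowest in HF-HP, then LF-HP, then HF-NP, and highest in LF-NP.

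The HF minus LF differences of the 10 genes ran from -0.21 (Lpin1) to 0.23 (Ppargc1a), with none at an unadjusted p under 0.05, while 0% of all genes passed limma and 3.33% had an unadjusted p under 0.05. No gene of the 10 had HF and LF groups that did not overlap, against 0.707% of all genes. For Lpin1, Slc37a4, Crtc2 and G6pc the HF minus LF difference was the larger in size of the 2 diet differences, and it passed for none of them. The Ppargc1a interval, -0.30 to 0.75, is wide, and its matched pairs differed: HF-HP minus LF-HP was 1.11 at 12 weeks and 0.32 at 1 week, and HF-NP minus LF-NP -0.53 at 12 weeks and 0.004 at 1 week. The protein by fat term, the HP minus NP difference in HF diets minus that in LF diets, was above 0 for all 10 genes, with a median of 0.26 against 0.03 over all genes, of which 56.6% were above 0. None passed, 1 of the 10 (Ppargc1a) had an unadjusted p under 0.05, as did 7.022% of all genes, and 0% of all genes passed. The genes share the same 8 pools, so these signs are not independent. They were above 0 for 9 of 10 genes with HF-HP at 12 weeks left out and for 10 of 10 with any other single pool left out. The protein by week term had 3 genes above 0 and 7 below, with 0 of 10 at an unadjusted p under 0.05 in limma (2.623% of all genes), and 0% of all genes passed.

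Protein and fat were exchanged for carbohydrate in these diets, so the levels can also be set in the order of carbohydrate. Per 10% of energy from carbohydrate, with week in the fit, Ppargc1a changed by -0.29 (SE 0.07, adjusted p = 0.243) and Pck1 by -0.10 (SE 0.03, adjusted p = 0.334). The slope of Pcx was 0.05 (SE 0.01, adjusted p = 0.231). None of the 10 genes passed in limma, where 0.0100% of all genes did, and these 3 had an unadjusted p under 0.05, as did 9.429% of all genes. Pcx lay in the same order in both weeks, 11.29, 11.40, 11.49 and 11.65 at 15, 40, 50 and 75% carbohydrate at 1 week and 11.20, 11.22, 11.32 and 11.45 at 12 weeks. Ppargc1a was not graded at the high end, since LF-NP at 75% was within 0.004 of HF-NP at 50% at 1 week and 0.53 above it at 12 weeks. With 4 diets, carbohydrate cannot be told apart from protein together with fat.

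**Figure D4:**
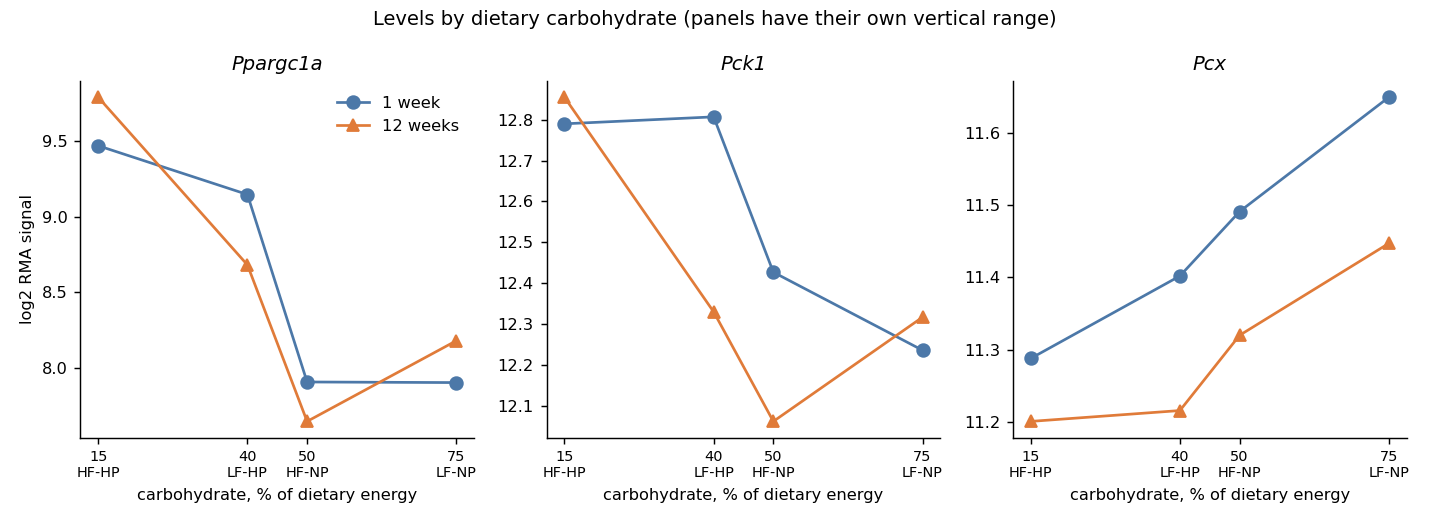
Log2 RMA signal of Ppargc1a, Pck1 and Pcx against the share of dietary energy from carbohydrate, 15% (HF-HP), 40% (LF-HP), 50% (HF-NP) and 75% (LF-NP), with circles for 1 week and triangles for 12 weeks. Each point is 1 pool. At 1 week Ppargc1a steps down between 40 and 50%, at 12 weeks it is lower at 40% (8.68) than at 15% (9.79) and lower again at 50% (7.64), and Pcx goes up along the axis in both weeks.

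The other genes of the pathway were followed in 6 lists, of which 66 of 77 genes had a value. In the HP against NP test 0 of them were higher and 2 lower, where 0.441% of all genes passed in either direction. At an unadjusted p under 0.05, the share over all genes was 10.26%, and 48.05% of all genes had a difference above 0, to be set beside the counts of each list. The 2 genes that passed stand on the glycolytic side or at the entry of glycerol. Pklr, the liver pyruvate kinase that works against Pck1 at the level of phosphoenolpyruvate, had 10.50 and 11.13 in the HF-HP pools at 1 and 12 weeks and 10.58 and 11.25 in the LF-HP pools, against 11.35 and 11.73 in the HF-NP pools and 11.96 and 11.91 in the LF-NP pools. Every HP pool was below every NP pool. Pklr fell by 0.87 on the log2 scale in HP pools (SE 0.13, adjusted p = 0.0474). Gpd1, the cytosolic glycerol 3-phosphate dehydrogenase, lay between 10.96 and 11.15 in HP pools and between 11.46 and 11.56 in NP pools, and fell by 0.48 (SE 0.06, adjusted p = 0.0352). Both calls were lost with any 1 of the 8 diet pools left out. The adjusted p-values were then 0.0643 to 0.182 for Pklr and 0.0518 to 0.154 for Gpd1. A fit with each matched pair of pools (same fat and week) as a block lost both calls as well (0.0822 for Pklr and 0.0503 for Gpd1).

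Pklr stood in a list of genes of glycolysis and pyruvate oxidation, which also holds inhibitors of these steps (Gckr for glucokinase, and the kinases Pdk1, Pdk2 and Pdk4 for pyruvate dehydrogenase). Of its 10 genes with a value the other 9 did not pass, 3 of the 10 had an unadjusted p under 0.05, and 5 differences were above 0 and 5 below (median 0.01 against -0.004 over all genes), a median over genes that act in opposite ways. Of the enzymes shared by glycolysis and gluconeogenesis, 7 of 11 had a value, none passed (4 had an unadjusted p under 0.05), and all 7 differences were above 0 with a median of 0.19. Pgk1, phosphoglycerate kinase, averaged 11.31 ± 0.05 in HP pools and 11.03 ± 0.10 in NP pools (SD, n = 4 each), a difference of 0.28 with an adjusted p of 0.148. Mdh2, the mitochondrial malate dehydrogenase, had a difference of 0.24 (adjusted p = 0.322), and Fbp2, the muscle bisphosphatase, one of 0.09 (adjusted p = 0.780), which ran from 0.039 to 0.13 with 1 pool left out. In the list for the entry of substrates 13 of the 14 genes with a value did not pass, 4 of the 14 had an unadjusted p under 0.05, and its median was 0.10. The largest difference there was that of Got1, the cytosolic aspartate aminotransferase, singled out after its values were seen. Got1 had 12.91 and 12.73 in the HF-HP pools at 1 and 12 weeks and 12.91 and 12.31 in the LF-HP pools, against 11.96 and 11.08 in the HF-NP pools and 12.11 and 11.70 in the LF-NP pools. The difference was 1.00 (SE 0.15) and missed the threshold with an adjusted p of 0.0503.

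Among the transcription regulators, 25 of 26 had a value and none passed (7 had an unadjusted p under 0.05), with 9 differences above 0 and 16 below (median -0.05). Nr0b2, the corepressor SHP, had 8.17 and 7.47 in the HF-HP pools at 1 and 12 weeks and 8.30 and 7.24 in the LF-HP pools, against 8.59 and 8.27 in the HF-NP pools and 8.09 and 8.73 in the LF-NP pools. The groups overlapped, and the difference was -0.63 (SE 0.24, adjusted p = 0.408). It was -0.38 with the LF-NP pool of week 12 left out and -0.87 at most with any 1 pool left out, and it was -1.15 at 12 weeks alone and -0.11 at 1 week alone. Sik1, a kinase induced by cAMP that phosphorylates CRTC2, differed by 0.38 (SE 0.15, adjusted p = 0.453), or 0.22 with either HF pool of week 12 left out, and Sirt1, a deacetylase of PGC-1α, by 0.01 (SE 0.10, adjusted p = 0.984). The other lipins, Lpin2 and Lpin3, differed by -0.05 (adjusted p = 0.933) and -0.01 (adjusted p = 0.976). Of 8 hormone regulated genes none passed (3 had an unadjusted p under 0.05), with a median of 0.04. Igfbp1, a liver gene repressed by insulin, averaged 8.87 ± 0.76 in HP pools and 8.43 ± 0.60 in NP pools (SD, n = 4 each, adjusted p = 0.739), and its spread among pools was larger than the difference, which ran from 0.10 without HF-HP at 12 weeks to 0.83 without LF-HP at 12 weeks. Per1, a clock gene that also answers to glucocorticoids and cAMP, differed by 0.42 (SE 0.15, adjusted p = 0.395), or 0.27 with HF-HP at 12 weeks left out. Irs2, an insulin receptor substrate that rises in fasting, differed by 0.02 (SE 0.11, adjusted p = 0.972).

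**Figure D5:**
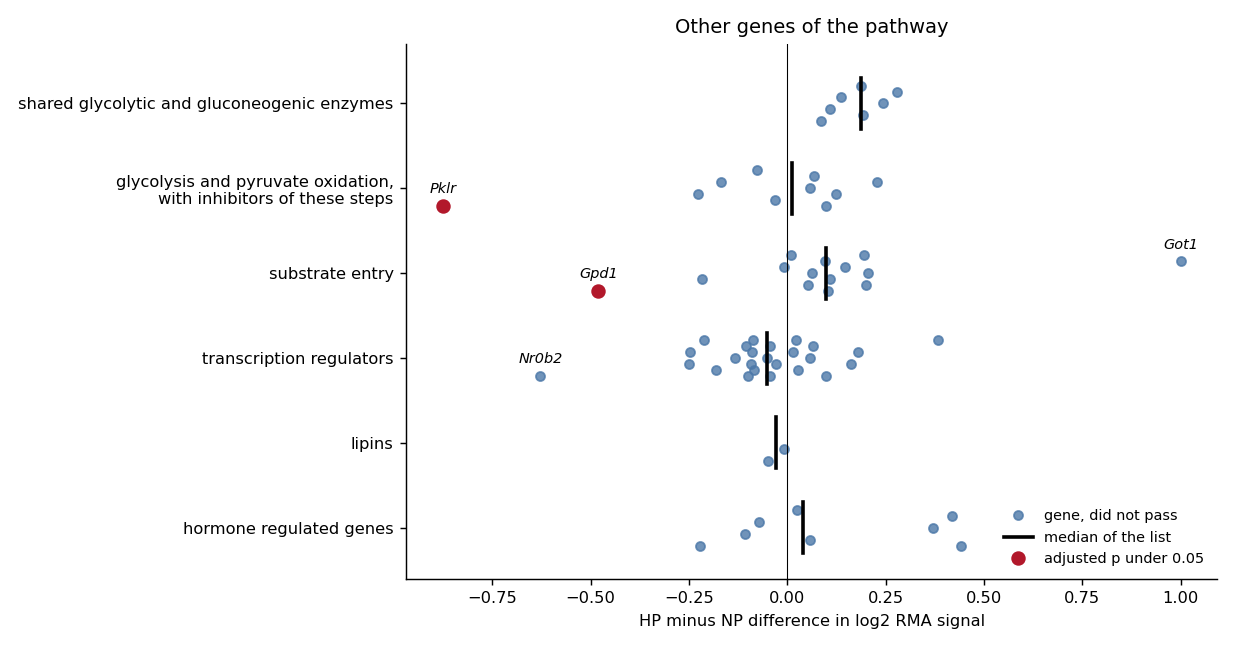
Differences of HP minus NP, in log2 RMA signal, of 66 other genes in 6 lists, each point a gene, black bars the medians of the lists and red points the genes with an adjusted p under 0.05. Pklr at -0.87 and Gpd1 at -0.48 are the red points, and Got1 at 1.00 lies furthest to the right without passing.

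Genes whose level ran most like that of a member were sought among the 2386 genes with an SD of at least 0.2 over the 9 pools. Nearest to Ppargc1a were Cox7a1, a cytochrome c oxidase subunit (Pearson r 0.979 over 9 pools), Slc7a2, a carrier of cationic amino acids (0.974), Coq10b (0.964) and Etnppl, which splits phosphoethanolamine (0.954). Etnppl had 11.64 and 11.73 in the HF-HP pools at 1 and 12 weeks and 11.33 and 11.37 in the LF-HP pools, against 10.32 and 9.97 in the HF-NP pools and 10.30 and 10.32 in the LF-NP pools. The HP minus NP differences were 0.99 for Cox7a1 (adjusted p = 0.155), 1.03 for Slc7a2 (0.0379), 0.50 for Coq10b (0.0788) and 1.29 for Etnppl (0.0138), and since these genes were picked for running like Ppargc1a over the same pools, these values are no separate evidence. Nearest to Pck1 were Tbc1d8 (0.945), Mknk2 (0.937), Cabyr (0.934) and Slc25a51 (0.931), and the r of Ppargc1a with Pck1 was 0.846. Nearest to G6pc were Zpr1 (0.973), Kctd9 (0.937), Zfp954 (0.927) and the amino acid carrier Slc38a2 (0.920), which, like G6pc, had their lowest value in the LF-HP pool of week 12. G6pc itself had an SD of 0.115 over the 9 pools, under the minimum asked of the other genes, so its r rest on small differences in level. The points share the pools and the diets, so these r describe likeness only.

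The arrays were alike, with pairwise correlations of 0.988 to 0.993 over all probe sets. The tissue label was checked on hepatocyte markers (Alb, Apoa1, Ttr, Apob, Cps1, Tat and Serpina1c), whose summed linear signal was 77943 to 82977 in HP pools and 72759 to 79772 in NP pools, with 7 of 7 markers measured. No marker of the 11 cell type and tissue lists passed the HP against NP test, and the summed signals of HP and NP pools overlapped in every list. The lowest medians of HP minus NP were those of lymphocyte markers (-0.28, 3 of 4 with a value, sums of 135 to 169 in HP pools and 155 to 199 in NP pools) and of the erythroid list (-0.30, 1 of 3 with a value, 571 to 812 in HP pools and 731 to 873 in NP pools). Their part in the results was not tested.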

How the data were processed

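Liver RNA of 9 pools was hybridised to Affymetrix Mouse Gene 1.0 ST arrays, 1 pool of 5 mice per array. The deposited values are log2 signals that the authors made by RMA (background correction, quantile normalisation and summary over probes). The methods describe remapped probe sets, while the deposited rows are the array's own, so levels may differ from those of the study. RMA can compress high and low signals. Of 35556 probe sets, 21789 had 1 gene symbol, 1621 several and 12146 none. For each of 19938 genes the probe set with the highest mean was used. The 8 diet pools were fitted with limma 3.58.1 in R 4.3.3 (protein, fat and week, two-sided, Benjamini-Hochberg over all genes, threshold 0.05), with interaction terms or a carbohydrate slope in further fits. The reference pool entered no test. The script was tested on simulated data. With 1 array per diet and week, the number of arrays limits the precision. The 10 genes and all lists were chosen with earlier results of these data known. Named genes were the 10 members, the genes of each list past the HP against NP test or otherwise the 2 largest differences and the smallest, and the 4 genes most like Ppargc1a, Pck1 and G6pc. Alternatives covered filtering, scaling, weights, the prior, probe sets, covariates, left-out pools and single weeks or fats. Sequences came from RefSeq tables (GRCm38.p6), and only the listed motifs were searched.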

Additional observations from a re-analysis of the deposited data

Results flagged for a closer look

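Dixon's test was run on the 4 HP and the 4 NP pools of each of the 10 genes, and chance flags about 1 group in 20. Of 20 groups 3 held a pool far from the other 3. In the HP group, Pck1 was low in the LF-HP pool of week 12, at 12.33, with a gap of 0.46 that made up 0.876 of the range of the group. Pck2 was high in the HF-HP pool of week 1, at 6.99, with a gap of 0.38 (0.864 of the range). In the NP group, Pck2 was low in the HF-NP pool of week 12, at 6.29, with a gap of 0.26 (0.837 of the range). Each pool is 1 array, so these values have no repeat.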

How the results depend on the processing

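No member of the 10 passed the HP against NP test, and 1 (Ppargc1a) did with only genes above the median level (adjusted p = 0.0187), array weights (0.0369), arrays centred on their median (0.0303), no covariates (0.0418), the mean over probe sets (0.0490), the dimmest probe set of each gene (0.0474, an alternative chosen after seeing the data) or a threshold of 0.1. With each pool left out in turn the count ran from 0 to 1. A block for each combination of fat and week, which pairs the matched HP and NP pools, gave Ppargc1a an adjusted p of 0.107. It changed no call among the 10. The number of members that passed was 0 under every alternative run for fat, week, both interactions and the carbohydrate slope. Single weeks and single fat levels leave 4 pools per fit, so that failing to pass there says little, and these fits are counted among the 20 alternatives. Pklr did not pass in 14 of 20 alternatives and Gpd1 in 13 of 20, always in the same direction. Changes of sign came only from differences that passed nowhere. At 1 week alone, Crtc2 was 0.043, Sirt1 -0.11, Lpin2 0.087 and Irs2 -0.046. At 12 weeks alone, G6pc was -0.028, Slc37a4 0.069 and Lpin1 0.049. In HF diets alone, Crtc2 was 0.084, Slc37a4 0.010, Lpin1 0.17 and Lpin2 0.066. In LF diets alone, Fbp1 was -0.085, G6pc -0.13, Sirt1 -0.17, Igfbp1 -0.17 and Irs2 -0.15. With array weights, Sirt1 was -0.059 and Irs2 -0.033, and with the dimmest probe set the protein by week term of Ppargc1a was 0.099. With each pool left out, HP minus NP ran from -0.084 to 0.050 for Crtc2, -0.020 to 0.057 for Fbp1, -0.045 to 0.097 for G6pc, -0.11 to 0.0013 for Slc37a4, -0.19 to 0.035 for Lpin1, -0.092 to 0.077 for Sirt1, -0.11 to 0.074 for Lpin2 and -0.10 to 0.12 for Irs2. HF minus LF of Ppargc1a ran from -0.0056 to 0.43 and its protein by week term from -0.67 to 0.51. The cause was not tested.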

Other observations

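Further genes of the lists were looked up after their values were seen, and none passed the HP against NP test. Tat, tyrosine aminotransferase, averaged 13.36 ± 0.15 in HP pools and 12.99 ± 0.22 in NP pools (SD, n = 4 each), a difference of 0.37 with an adjusted p of 0.218 in limma. Slc38a4, an amino acid carrier of the liver, lay between 12.51 and 12.72 in HP pools and between 12.39 and 12.48 in NP pools (difference 0.21, adjusted p = 0.236). Gcgr, the glucagon receptor, averaged 10.52 ± 0.08 in HP pools and 10.75 ± 0.10 in NP pools (difference -0.22, adjusted p = 0.309). Gckr, the regulator protein of glucokinase, lay between 9.71 and 9.98 in HP pools and between 10.00 and 10.18 in NP pools (difference -0.23, adjusted p = 0.183).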
